A study of Mus musculus with 4 samples.

Results

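Ribosomal protein genes encode the protein subunits of the cytosolic ribosome, the particle that translates messenger RNA. They were chosen by gene symbol (Rpl or Rps followed by a number, with Rplp0 to Rplp2 and Rpsa, and without the Rps6k kinases) in the annotation of the array used. The rule gave 67 genes of 18820 with a probe set of their own, and 66 of the 67 were among the 11292 genes tested. Of the 67, 25 encode proteins of the small (40S) subunit and 42 proteins of the large (60S) subunit. Of a list of 79 known subunit genes, 12 are not described here. Fau has a symbol outside the rule, Rpl32, Rpl37a and Rps16 had only probe sets that name several genes, and the other 8 were not analysed here.

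The tissue was epididymal fat, the visceral fat pad of the male mouse, measured on 4 gene arrays. Mice lacking CD1d (CD1d-/-), a molecule that presents lipids to natural killer T cells, ate a low-fat diet with 10 kcal% fat and gave 2 arrays, KO1 and KO2. Of the wild type mice, those fed a high-fat diet (45 kcal% fat) gave 1 array, WT-HF, and those on the low-fat diet gave 1 array, WT-LF. All mice were C57BL/6, the null allele after 10 to 12 generations of backcrossing to C57BL/6J. They started the diets at an age of 10 to 11 weeks and stayed on them for 18 to 19 weeks. RNA of 4 to 6 mice per group was pooled, and no label states that KO1 and KO2 carry separate pools, so the spread behind each p-value is only that of these arrays and may be technical. High-fat feeding of KO mice was not analysed here. The series concerns the role of CD1d-restricted cells in the insulin sensitivity of lean mice.

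A ribosome needs its proteins in fixed proportions, and cells make them together with ribosomal RNA. Ribosomal protein messages begin with a run of pyrimidines, the 5′ terminal oligopyrimidine (TOP) tract, through which growth signalling by mTORC1 and the RNA-binding protein Larp1 adjusts their translation. They are among the abundant messages of most cells, and their genes have left many processed pseudogenes with near-identical sequence in the mouse genome. Several of them, such as Rplp0, Rpl13a, Rpl19 and Rps18, are in common use as reference genes in quantitative PCR.

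The annotated starts of 54 of the 67 genes were found in the RefSeq promoter table (mouse build GRCm38.p6). The following 60 bases, from 30 before to 30 after the annotated start, are shown for 4 of the genes lowest on WT-HF (Rps27, Rpl22, Rps12 and Rps28), for the reference gene Rpl13a, and for 3 genes with nearly the same level on WT-HF and WT-LF (Rps2, Rps6 and Rpl10). Capitals mark the longest run of C and T in each window.
Rps27 (chr3:90213619-90213678, minus strand): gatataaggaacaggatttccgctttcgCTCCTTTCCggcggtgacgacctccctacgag
Rpl22 (chr4:152325696-152325755, plus strand): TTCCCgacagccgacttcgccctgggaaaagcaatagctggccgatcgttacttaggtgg
Rps12 (chr10:23787180-23787239, minus strand): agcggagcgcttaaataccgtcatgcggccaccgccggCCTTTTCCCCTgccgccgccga
Rps28 (chr17:33824533-33824592, minus strand): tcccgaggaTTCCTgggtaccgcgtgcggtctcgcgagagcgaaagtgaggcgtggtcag
Rpl13a (chr7:45128716-45128775, minus strand): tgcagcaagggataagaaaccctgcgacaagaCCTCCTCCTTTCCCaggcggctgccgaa
Rps2 (chr17:24720033-24720092, plus strand): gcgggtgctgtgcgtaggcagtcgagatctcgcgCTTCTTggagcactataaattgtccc
Rps6 (chr4:86857338-86857397, minus strand): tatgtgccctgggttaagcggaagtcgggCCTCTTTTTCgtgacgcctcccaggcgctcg
Rpl10 (chrX:74270786-74270845, plus strand): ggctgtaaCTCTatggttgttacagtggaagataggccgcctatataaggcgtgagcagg
The run is 9 bases long in Rps27, 11 in Rps12 and 10 in Rps6, and 4 in Rpl10 and 5 in Rps28.

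Over the 54 windows the longest run of C and T had a median of 8 bases, against 5 bases over all 27025 promoters in the table. A run of at least 8 was present in 28 of the 54 (51.9%), against 22.8% of all promoters, and one of at least 10 in 19 (35.2%), against 10.7%. At the annotated start itself, a C followed by at least 4 pyrimidines stood in 12 of the 54 (22.2%), against 2.49% of all promoters. The letters CCGGAAG, a core that ETS-family factors bind, were found on either strand of the whole promoter sequence in 23 of the 54 (42.6%), against 9.12% of all. AAGATGGC, the core of the YY1 site, was present in 4 (7.41%), against 2.88%, and TATAAA in 5 (9.26%), against 14.2%, both searched on either strand; none of these 3 motifs contains another. These matches describe the letters around annotated starts and are not binding sites. In the diet comparison (WT-HF minus WT-LF, log2), the 27 tested genes with a run of at least 8 had a median difference of −0.30 (range −0.96 to 0.03) and the 26 without it one of −0.34 (range −0.69 to 0.06).

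A level is the log2 of a deposited intensity, and a difference is one of log2 levels unless called a fold. Intensities of different probe sets depend on their probes and are not compared as amounts of RNA between genes. Cd1d1, the gene deleted in the knockout, was at 3.74 and 3.98 on the KO arrays, against 11.80 on WT-LF (mean difference −7.95, SE 0.32, limma adjusted p = 0.00646). All 8 adipocyte markers lay between 11.38 and 13.48 on every array. Transcripts of the epididymis, which adjoins this fat pad, stood apart on WT-LF. The log2 summed intensity of 10 such markers was 7.47 on WT-HF, 9.12 on KO1 and 10.61 on KO2, against 13.97 on WT-LF, and their part in differences from WT-LF was not tested. The difference between KO2 and KO1 does not use WT-LF, but these markers differed there too. Their median was 1.01 (range −3.04 to 5.04), with 8 higher and 2 lower on KO2. Over all 11292 genes the median distance from WT-LF was 0.05 on WT-HF, −0.17 on KO1 and −0.02 on KO2. Centring the arrays on their medians moved that of KO1 to 0.03, and group results are to be read against these medians.

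Ribosomal protein genes were lower as a group on WT-HF than on WT-LF. The median level of the 67 genes was 11.18 on WT-HF and 11.42 on WT-LF. Of the 66 tested, 63 (95.5%) were lower on WT-HF, against 41.8% of all genes tested, and 3 were higher, against 58.2% of all. Their median difference was −0.32, and that of all genes was 0.05. Each group is 1 array, and this comparison was described by size with no test. In a bulk sample fewer cells of a type and less RNA per cell cannot be told apart.

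The differences were small for most genes. At 1.5-fold or more, 6 of the 66 (9.09%) were lower on WT-HF, against 3.82% of all genes, and 0 were higher, against 7.72% of all. Of these 6, 5 belong to the small subunit: Rps27, Rps29, Rps12, Rps28 and Rps21. The sixth, Rpl22, is a large subunit protein that mice need for normal development of T cells. The dotted lines at 1.5-fold in the plot of all 67 genes show how few points lie beyond them.

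**Figure D1:**
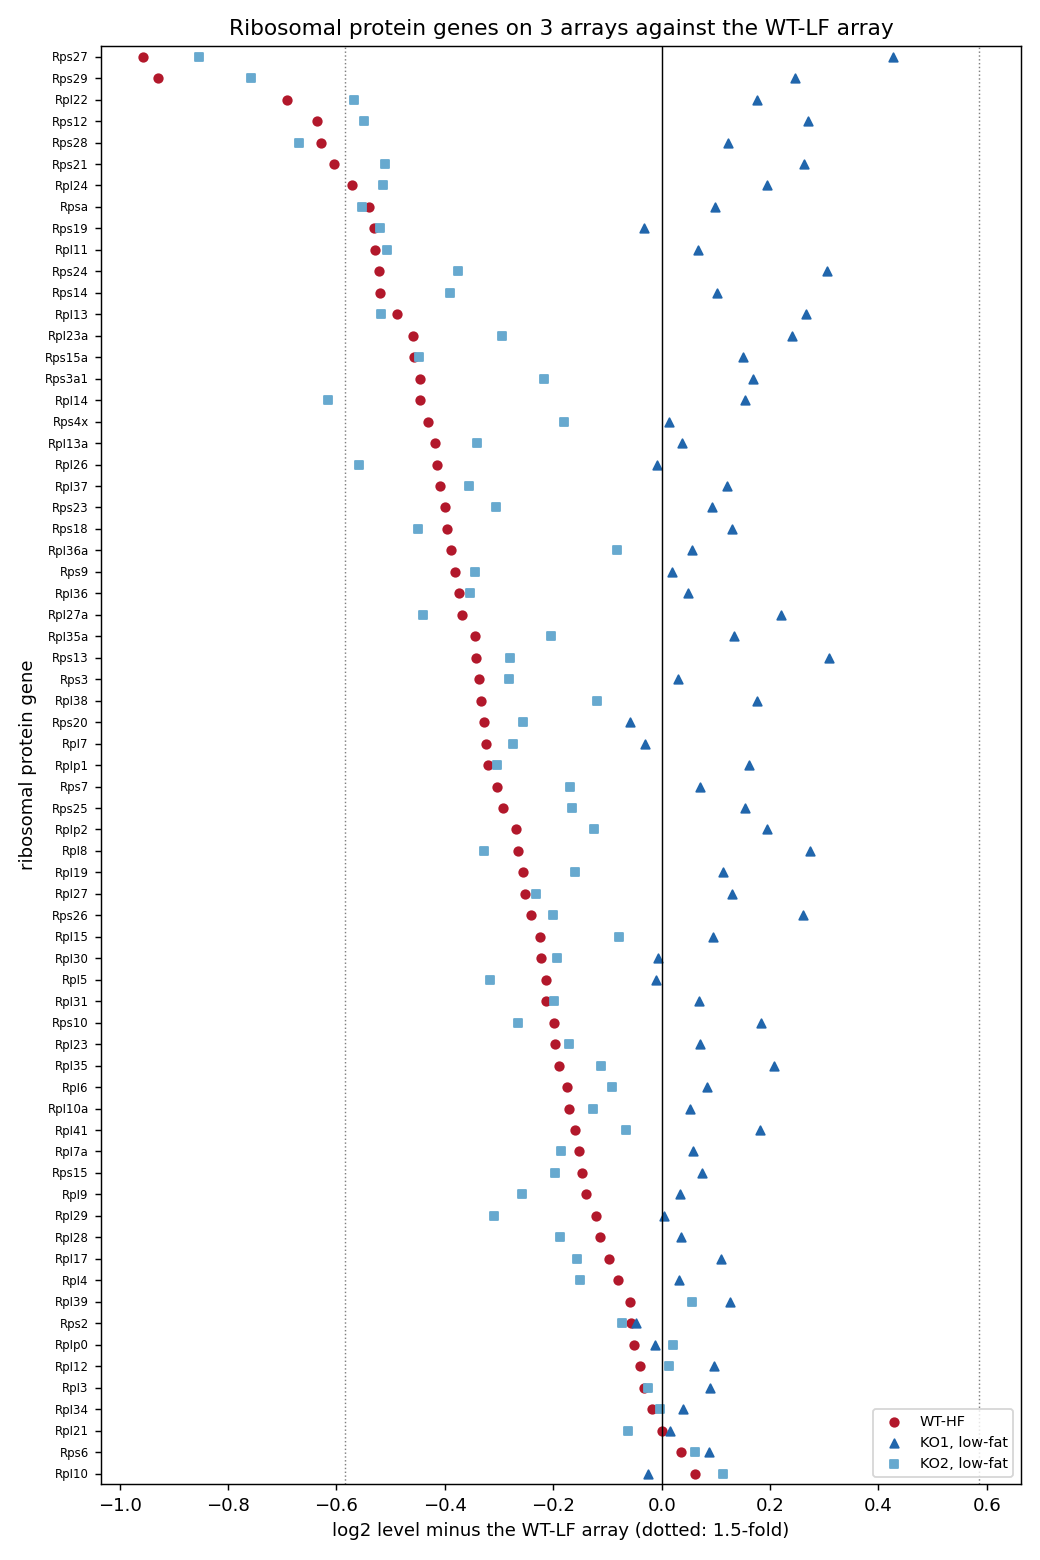
Each row is 1 of the 67 ribosomal protein genes, and the horizontal axis is its log2 level minus that on WT-LF, for WT-HF (red circles), KO1 (dark blue triangles) and KO2 (light blue squares), with 1.5-fold dotted. WT-HF values run from −0.96 for Rps27 to 0.06 for Rpl10, KO2 mostly lies left of 0 with them, and KO1 lies right of 0 for most genes.

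Rps27, a zinc-binding protein of the small subunit, had the largest difference of the 66. Its level was 9.46 on WT-HF, 10.84 on KO1 and 9.56 on KO2, against 10.41 on WT-LF. It was thus 1.94-fold lower on WT-HF than on WT-LF, and the lowest 2 of its 4 values were those of WT-HF and KO2. Rps29, another zinc-binding small subunit protein, was at 10.29 on WT-HF, 11.47 on KO1 and 10.46 on KO2, against 11.22 on WT-LF. That is 1.90-fold lower on WT-HF, with the same order of arrays as for Rps27.

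Rps12 was at 10.78 on WT-HF, 11.69 on KO1 and 10.87 on KO2, against 11.42 on WT-LF. Rps28 was at 11.21 on WT-HF, 11.96 on KO1 and 11.17 on KO2, against 11.84 on WT-LF. Both were 1.55-fold lower on WT-HF than on WT-LF, and both had WT-HF and KO2 at the low end. Rps21 (8.29 on WT-HF, 9.16 on KO1 and 8.38 on KO2, against 8.89 on WT-LF) was 1.52-fold lower on WT-HF. Its other, dimmer probe set differed by −0.96 between WT-HF and WT-LF. Rpl22 was at 7.12 on WT-HF, 7.99 on KO1 and 7.25 on KO2, against 7.81 on WT-LF. It is among the members with the dimmest probe sets.

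Some genes had nearly the same level on all 4 arrays. Rps6, the small subunit protein that S6 kinases phosphorylate, was at 13.04 on WT-HF, 13.09 on KO1 and 13.07 on KO2, against 13.00 on WT-LF. Rpl10, which joins the large subunit late in its assembly, was at 12.76 on WT-HF, 12.68 on KO1 and 12.81 on KO2, against 12.70 on WT-LF. These 2 and Rpl21, at 12.89 on both wild type arrays, are the 3 genes that were not lower on WT-HF. With arrays centred on their medians, Rpl10 came to −0.01 and all 66 genes were lower on WT-HF.

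The 3 stalk proteins, which recruit the translation factors to the large subunit, differed among themselves. Rplp0 was at 12.52 on WT-HF, 12.56 on KO1 and 12.59 on KO2, against 12.57 on WT-LF, a range of 0.07 over the arrays for its brightest probe set. Its other 3 probe sets differed by −0.12, −0.12 and −0.15 between WT-HF and WT-LF, where the brightest gave −0.05. Rplp1 was at 12.60 on WT-HF, 13.08 on KO1 and 12.62 on KO2, against 12.92 on WT-LF, and so was low on WT-HF and KO2. Rplp2, at 5.11 on WT-HF, 5.57 on KO1 and 5.25 on KO2, against 5.37 on WT-LF, was the 1 member below the filter of 5.45 on mean level and was not tested.

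Among genes used as references in quantitative PCR, the difference WT-HF minus WT-LF was −0.05 for Rplp0 (−0.11 as the mean of its 4 probe sets), −0.26 for Rpl19, −0.40 for Rps18 and −0.42 for Rpl13a (Rps18 was named after its values were seen). Rpl13a was at 11.25 on WT-HF, 11.71 on KO1 and 11.33 on KO2, against 11.67 on WT-LF. Its 2 high arrays were KO1 and WT-LF, the order most members had.

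Among the other small subunit genes, Rpsa, which also serves as a laminin receptor, was at 11.15 on WT-HF, 11.79 on KO1 and 11.14 on KO2, against 11.69 on WT-LF. Rps19, the gene most often mutated in Diamond-Blackfan anaemia in humans, was at 10.11 on WT-HF, 10.61 on KO1 and 10.13 on KO2, against 10.64 on WT-LF. By these probe sets, both genes had WT-HF and KO2 below the other arrays by about the same amount. The 5 probe sets of Rpsa ran from −0.81 to −0.54 in the diet comparison, and the brightest, shown here, gave the smallest difference. Rps4x, an X-linked gene, was at 10.99 on WT-HF, 11.43 on KO1 and 11.24 on KO2, against 11.42 on WT-LF, so that KO2 lay between. Rps2, at 13.00 on WT-HF, 13.01 on KO1 and 12.99 on KO2, against 13.06 on WT-LF, differed little.

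Small subunit genes lay farther from WT-LF than large subunit genes. Their median difference on WT-HF was −0.40 over 25 genes, with 24 lower and 5 of them by 1.5-fold or more. For the large subunit it was −0.22 over 41 genes, with 39 lower and 1 of them by 1.5-fold or more. Both medians lie below that of all genes, 0.05. This difference between the subunits was not tested. Small subunit genes also had dimmer probe sets, with a median level of 11.42 on WT-LF against 11.70 for the large subunit. Dimmer members differed more, as described below, and the part of brightness in the subunit difference was not tested.

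Between KO and wild type on the low-fat diet, no ribosomal protein gene passed the test. Limma called 0 of the 66, against 5 of 11292 genes (0.0443%), and gave an adjusted p of 1 for each of the 66. At an unadjusted p under 0.05 it called 0 of the 66, against 0.815% of all genes. Among the 5 genes called were 4 of the 10 epididymis markers (median mean difference of the 10, −4.60) and Cd1d1 (−7.95). Over the 66, the mean difference ran from −0.28 for Rpl26 to 0.09 for Rpl39, with SEs from 0.31 to 0.56. Each was smaller than its SE, so the lack of calls does not show equal levels. The median over the 66 was −0.06, and that of all genes was −0.09. A total of 0 of 66 were at least 1.5-fold lower on both KO arrays, against 0.77% of all genes, and 0 were at least 1.5-fold higher on both, against 0.584%.

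The mean over the KO pair hides opposite values on its arrays. Of the 66 genes, 54 (81.8%) were higher on KO1 and lower on KO2 than on WT-LF, against 12.7% of all genes. Only 7 were lower on both KO arrays, against 40.5% of all genes, and 3 were higher on both, against 9.74%. The 7 were Rps2, Rps19, Rps20, Rpl5, Rpl7, Rpl26 and Rpl30, and the 3 were Rps6, Rpl12 and Rpl39, some of them named after their values were seen. Rpl26, a large subunit protein known to bind the p53 message, was at 10.61 on KO1 and 10.06 on KO2, against 10.62 on WT-LF (KO mean difference −0.28, SE 0.37, limma adjusted p = 1). Rpl39, a small protein at the exit tunnel for the new chain, was at 13.20 on KO1 and 13.13 on KO2, against 13.07 on WT-LF (KO mean difference 0.09, SE 0.31, limma adjusted p = 1).

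Taken alone, KO1 had 57 of the 66 genes above WT-LF, against 22.4% of all genes, and 9 below it, against 77.6%. The median was 0.10, which is 0.27 above the median of all genes on that array. With the arrays centred, all 66 were higher. At 1.5-fold, 0 of the 66 were lower (all genes 5.02%) and 0 were higher (all genes 1.93%).

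KO2 gave the opposite picture. On it 61 of the 66 were below WT-LF, against 53.2% of all genes, and 5 were above it, against 46.8%. The median was −0.26, which is 0.23 below the median of all genes. By 1.5-fold or more, 4 of the 66 were lower, against 4.6% of all genes, and 0 were higher, against 5.54%. The 4 were Rps27, Rps29, Rps28 and Rpl14, a large subunit gene that was at 7.54 on KO1 and 6.78 on KO2, against 7.39 on WT-LF. A share of 4 in 66 is close to that of all genes. The KO median of −0.06 was 0.05 with the arrays centred, where 26 genes were lower and 40 higher in place of 53 and 13.

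By the uncentred median of the members, the KO arrays lay as far from each other as the wild type arrays of different diets. Measured from the median of all genes, they lay farther apart, at −0.46 for KO2 minus KO1 and −0.38 for WT-HF minus WT-LF. On KO2, 64 of the 66 (97%) were lower than on KO1, against 35.7% of all genes, and 2, Rplp0 and Rpl10, were higher, against 64.3%. The sign of both depended on the processing: Rplp0, at 0.03, was −0.06 as the mean of its probe sets and −0.16 with the arrays centred, and Rpl10, at 0.14, was −0.05 with the arrays centred, where all 66 were lower. The median difference between KO2 and KO1 was −0.32, and that of all genes was 0.14. By 1.5-fold or more, 15 of the 66 (22.7%) were lower on KO2, against 4.45% of all genes, and 0 were higher, against 14.8%. These arrays carry 1 genotype and 1 diet. The SD over the KO pair was 0.02 to 0.91 over the 66 genes, with a median of 0.23. In the KO test, limma combined this spread with one estimated from all genes (SD 0.28). The estimate from all genes had 4.62 degrees of freedom, against 1 for the KO pair, and so weighed more. The diet comparison was set against no spread.

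By the brightest probe set of each gene, Rps27 again had the largest difference, 2.43-fold lower on KO2 than on KO1. Its KO mean was 10.20 ± 0.91 (SD, n = 2). The next was Rps29, at 10.46 on KO2 and 11.47 on KO1. The same comparison gave 1.76-fold for Rps12, 1.73-fold for Rps28, 1.71-fold for Rps21 and 1.67-fold for Rpl22. The dimmer probe set of Rps21 differed by −1.62, beyond the −1.28 and −1.31 of the probe sets of Rps27. All 6 genes that were at least 1.5-fold lower on WT-HF are among the 15, which is 40% of them. The same overlap was not counted over all genes, where the diet and KO array differences also ran together (Pearson r = 0.52). The other 9 of the 15 were Rpsa, Rps13, Rps15a, Rps24, Rpl8, Rpl13, Rpl14, Rpl24 and Rpl27a, some of them named after their values were seen. Rpl13, for example, was at 9.70 on KO2 and 10.49 on KO1, and at 9.73 on WT-HF, against 10.22 on WT-LF. The median difference between KO2 and KO1 was −0.46 over the small subunit, where 25 of 25 were lower, and −0.27 over the large subunit, where 39 of 41 were.

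**Figure D2:**
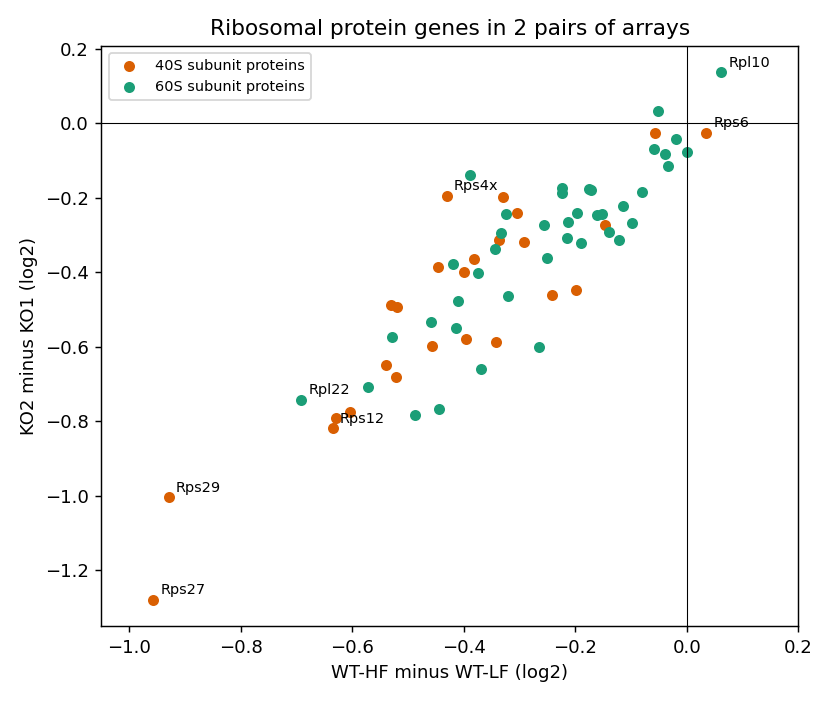
Each point is 1 of the 66 tested genes, with the WT-HF minus WT-LF difference (log2) on the horizontal axis and the KO2 minus KO1 difference (log2) on the vertical axis, coloured by subunit. The axes share no array, 63 of the 66 genes have the same sign on both, and Rps27 (−0.96 and −1.28) and Rps29 lie farthest from 0.

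Each gene's place among the arrays was alike over the group. Both WT-LF and KO1 lay above both WT-HF and KO2 in 61 of the 67 genes, against 20.9% of all genes tested. In 39 the order from high to low was KO1, WT-LF, KO2, WT-HF, and in 15 the last 2 were exchanged. KO1 was the highest array for 58 genes and WT-HF the lowest for 46. Over all genes tested, KO1 was the highest for 14.4% and WT-HF the lowest for 11.7%.

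Across the 66 genes, the diet difference and the difference between the KO arrays had a Pearson r of 0.89 and a Spearman rho of 0.85. The differences share no array, but all 4 arrays were normalized together and both differences read the same probe sets. The relation was not particular to ribosomal protein genes: r was 0.52 (rho 0.70) over the 11292 genes and 0.90 (rho 0.88) over the 1167 other genes with a mean level of at least 10. Those 1167 genes had a median of 0.12 on WT-HF against WT-LF and of 0.23 on KO2 against KO1, so most of them lay on the other side of 0 from the ribosomal protein genes. These relations across genes are descriptions, since genes are not independent replicates.

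Genes with brighter probe sets differed less. Over the 22 dimmest (mean levels 7.16 to 10.86), the median diet difference was −0.45. It was −0.30 over the next 22 (10.91 to 11.89) and −0.15 over the 22 brightest (11.95 to 13.10). Between KO2 and KO1 the medians of these sets were −0.58, −0.30 and −0.26. Across the 66 genes, mean level and diet difference had r = 0.50 (rho 0.61), and over the 1167 other bright genes r = −0.04 (rho −0.05). These values are not alike in kind. Nearly all of the 66 lie below 0, at levels from 7.16 to 13.10. The 1167 have levels of at least 10 and lie on both sides of 0 (391 lower, 776 higher on WT-HF). Their signed r thus cannot show whether brighter genes among them differed less. The brightest value of any probe set on any array was 14.29, and whether signal near the top of the range is compressed was not tested.

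**Figure D3:**
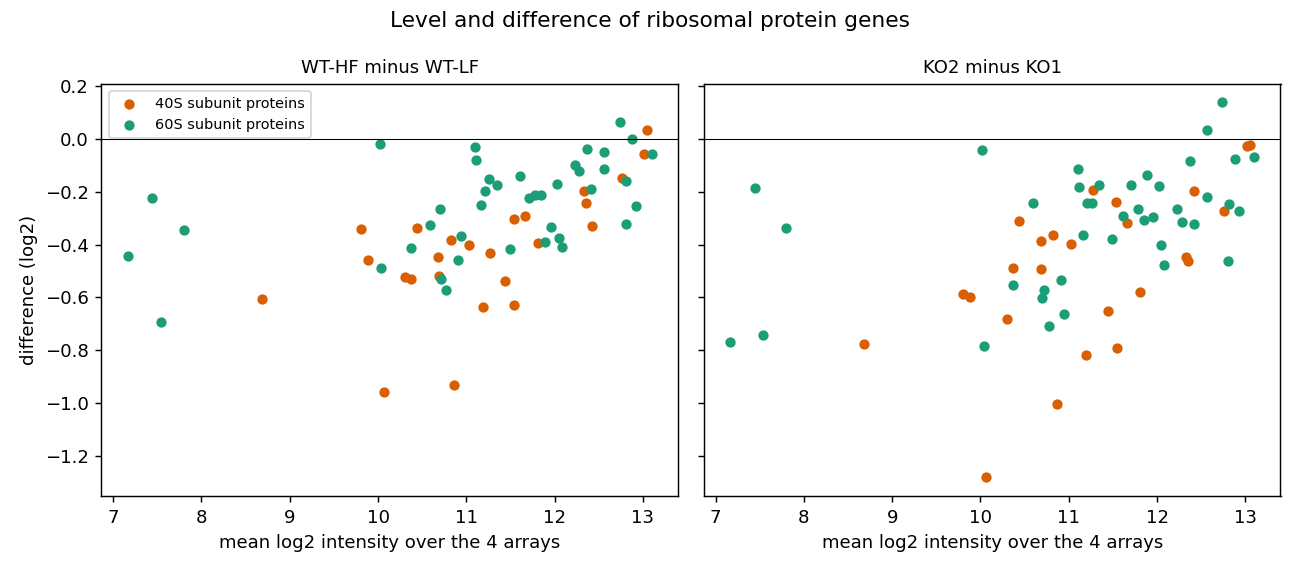
Each point is 1 of the 66 tested genes, with its mean log2 intensity over the 4 arrays on the horizontal axis and its difference (log2) on the vertical axis, for WT-HF minus WT-LF (left) and KO2 minus KO1 (right). In both panels the genes above a mean of 12.5 lie above −0.5 and the differences beyond −0.6 belong to genes under 11.6.

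Most members have several probe sets, and each was also read on its own. The 67 genes have 377 probe sets with 1 symbol, up to 41 for Rpl21, and 12 genes have 1. Of the 377, 339 (89.9%) were lower on WT-HF than on WT-LF, with a median of −0.22, and 362 (96.0%) were lower on KO2 than on KO1, with a median of −0.30. Shares over all probe sets of the arrays were not counted, and probe sets of 1 gene are not separate readings. The 12 probe sets of Rps12 gave −0.70 to −0.63 in the diet comparison, and the 13 of Rpl23a, chosen after their values were seen, −0.57 to −0.46. Probe sets pointed both ways in 5 genes: Rpl3 (−0.17 to 0.09), Rpl12 (−0.04 to 0.01), Rpl21 (−0.20 to 0.06), Rps2 (−0.09 to 0.02) and Rps6 (−0.06 to 0.06). Those of Rpl10 were all higher on WT-HF, by 0.04 to 0.12. Which of a gene and its near-identical processed copies a probe set reads is uncertain, and 17 of the 377 had values identical to another on all 4 arrays.

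**Figure D4:**
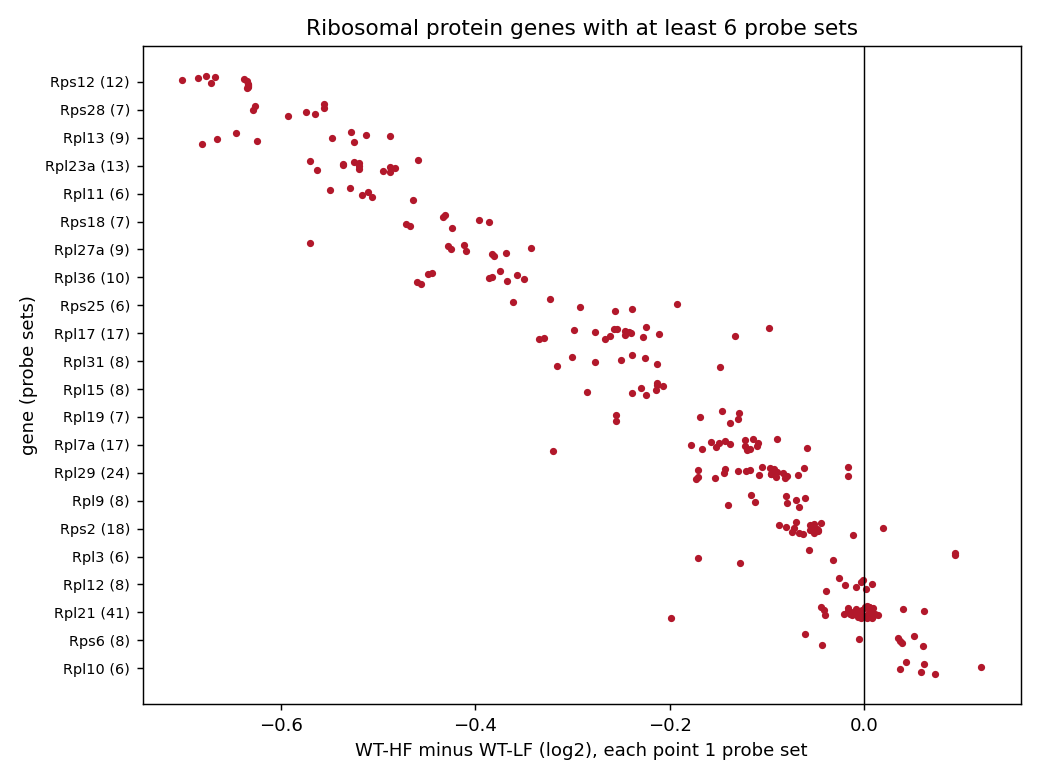
Each point is 1 probe set, with its WT-HF minus WT-LF difference (log2) on the horizontal axis, for the 22 ribosomal protein genes with at least 6 probe sets (number in brackets). Probe sets of 1 gene lie close together next to the spread between genes, from −0.70 to −0.63 for Rps12 at the top to 0.04 to 0.12 for Rpl10 at the bottom.

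Other genes of translation are set beside all genes tested, whose median was 0.05 on WT-HF against WT-LF, with 41.8% lower, and 0.14 on KO2 against KO1, with 35.7% lower. A list of 20 further genes whose messages carry a TOP tract includes the subunit gene Fau and some genes that are not of translation. Of the 20, 14 were lower on WT-HF (median −0.11), and 14 were lower on KO2 than on KO1 (median −0.08). Both medians lie below those of all genes and nearer to 0 than those of the ribosomal protein genes (−0.32 each), a difference that was not tested. Within this list Eif4a2, an RNA helicase of initiation, was at 10.62 on WT-HF, 11.44 on KO1 and 10.74 on KO2, against 11.43 on WT-LF. Gas5, a noncoding TOP transcript, was at 8.28 on WT-HF, 8.89 on KO1 and 8.43 on KO2, against 8.91 on WT-LF. These 2 had the low and high arrays that most ribosomal protein genes had. Pabpc1, the poly(A)-binding protein, had the opposite order, at 11.77 on WT-HF, 11.13 on KO1 and 11.54 on KO2, against 11.28 on WT-LF.

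Among 26 initiation factors, 10 were lower and 16 higher on WT-HF (median 0.02). Eif4a1, the paralog of Eif4a2, was at 12.07 on WT-HF, 11.20 on KO1 and 11.96 on KO2, against 11.45 on WT-LF, the reverse of Eif4a2. The 51 genes of ribosome assembly and ribosomal RNA synthesis had a median of 0.04 on WT-HF, with 22 lower and 29 higher, and 0.11 on KO2 against KO1, where all genes had 0.05 and 0.14. Nolc1, a nucleolar phosphoprotein, was at 7.65 on WT-HF, 6.95 on KO1 and 7.42 on KO2, against 7.15 on WT-LF. On WT-HF the 15 chaperones and importers of ribosomal proteins had a median of 0.11, and the 21 genes of mTORC1 and growth signalling one of −0.02. Myc, a transcription factor that drives ribosome synthesis, was at 7.77 on WT-HF, 8.10 on KO1 and 7.53 on KO2, against 8.33 on WT-LF. Limma called 0 genes of these 5 lists between KO and wild type.

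Of 6 measured paralogs of ribosomal protein genes, 3 were tested. Rps27l was at 10.53 on WT-HF, 10.90 on KO1 and 10.63 on KO2, against 10.70 on WT-LF, and Rps4l at 8.17 on WT-HF, 8.73 on KO1 and 8.31 on KO2, against 8.46 on WT-LF. Both had the order of arrays most common among the 67 genes. The third, Rpl7l1, was at 8.90 on WT-HF, 8.33 on KO1 and 8.81 on KO2, against 8.50 on WT-LF, with WT-HF and KO2 at the top. Fau, whose product is the small subunit protein eS30 joined to a ubiquitin-like part, was at 11.91 on WT-HF, 12.18 on KO1 and 11.86 on KO2, against 12.01 on WT-LF.

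The p53 pathway, which free Rpl5 and Rpl11 can activate by binding Mdm2, was described with 10 genes. Their median was 0.34 on WT-HF, with 6 of 10 higher, a share close to the 58.2% of all genes. It was 0.41 on KO2 against KO1, with 8 of 10 higher, against 64.3% of all genes. Cdkn1a, a cell cycle inhibitor, was at 9.88 on WT-HF, 8.92 on KO1 and 10.56 on KO2, against 8.55 on WT-LF. Mdm2 itself was at 8.75 on WT-HF, 7.80 on KO1 and 8.58 on KO2, against 8.05 on WT-LF. Of the same 10 genes, limma called 0 between KO and wild type. Rpl5, named after its values were seen, was at 11.77 on WT-HF, 11.97 on KO1 and 11.67 on KO2, against 11.98 on WT-LF.

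Genes of mitochondrial energy production were also low on WT-HF and KO2, where all genes had medians of 0.05 and −0.02 against WT-LF. Of 70 subunits of oxidative phosphorylation, 65 were lower on WT-HF (median −0.34), 15 of them by 1.5-fold or more, and 58 were lower on KO2 than on KO1 (median −0.30). Ndufa1 of complex I was at 7.66 on WT-HF, 8.52 on KO1 and 7.60 on KO2, against 8.59 on WT-LF. Of 73 mitochondrial ribosomal proteins, collected by symbol after values were seen, 61 were lower on WT-HF (median −0.23) and 54 on KO2 against KO1 (median −0.21). On KO1 against WT-LF the oxidative phosphorylation list had a median of −0.02 and the mitochondrial ribosomal list one of −0.09, where the cytosolic ribosomal protein genes had 0.10 and all genes −0.17. For 30 proteasome subunits, another set of abundant housekeeping genes, the diet median was 0.00.

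**Figure D5:**
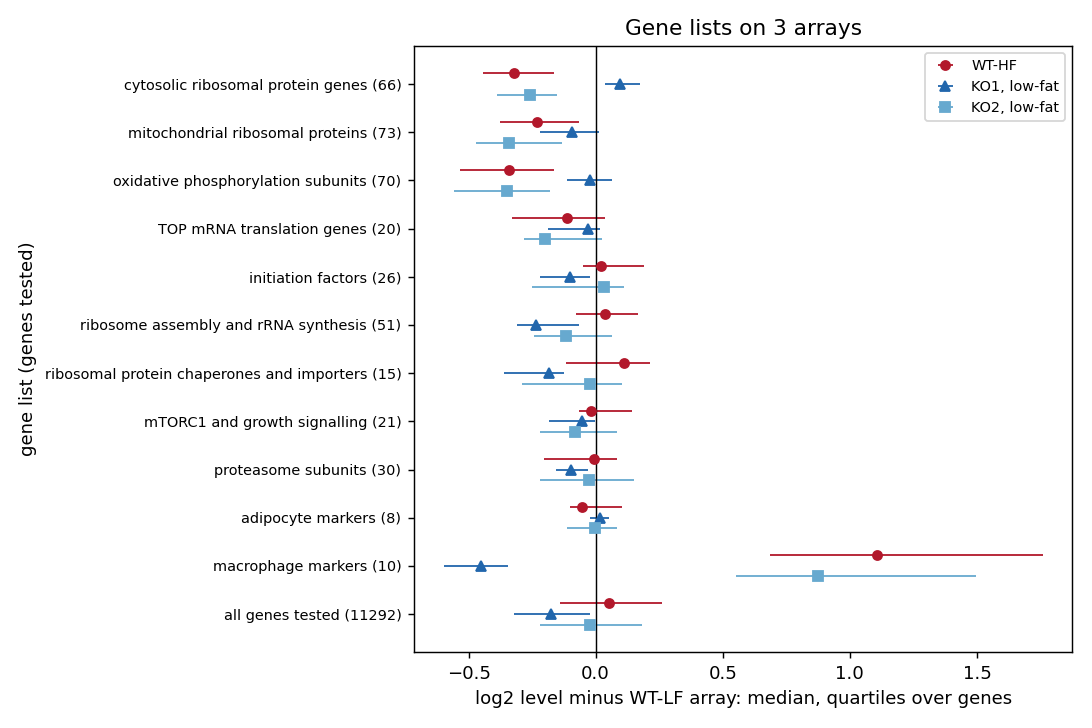
Points are medians and lines the quartiles over the genes of each list (number tested in brackets) of the log2 level minus that on WT-LF, for WT-HF (red circles), KO1 (dark blue triangles) and KO2 (light blue squares). On WT-HF and KO2 the cytosolic ribosomal protein genes (−0.32 and −0.26) and oxidative phosphorylation subunits (−0.34 and −0.35) lie below 0, and macrophage markers (1.11 and 0.88) above it.

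Markers of other cell types also differed between these arrays. All 10 macrophage markers were higher on WT-HF and on KO2, and lower on KO1, than on WT-LF. Their log2 summed intensity was 14.17 on WT-HF, 12.83 on KO1 and 13.99 on KO2, against 13.18 on WT-LF, the reverse of the order most common among ribosomal protein genes. Trem2, a receptor of lipid-laden macrophages, was at 9.94 on WT-HF, 6.52 on KO1 and 9.53 on KO2, against 6.86 on WT-LF. No macrophage marker was below 5.72 on any array.

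The 6 smooth muscle and pericyte markers had a log2 summed intensity of 12.38 on WT-HF, 13.17 on KO1 and 12.32 on KO2, against 12.38 on WT-LF. Their median difference from WT-LF was −0.35 on WT-HF (4 lower, 2 higher), 1.19 on KO1 (1 lower, 5 higher) and −0.42 on KO2 (5 lower, 1 higher). Between KO2 and KO1 the median was −1.66 (5 lower, 1 higher). By medians the markers were low and high on the same arrays as the ribosomal protein genes, but not every marker was. Their summed intensity was alike on the wild type arrays. Cnn1, the smooth muscle calponin, was at 5.59 on WT-HF, 11.03 on KO1 and 5.12 on KO2, against 8.05 on WT-LF. It was the extreme of the list in each of these differences. The log2 summed intensity of the 8 adipocyte markers was 15.87 on WT-HF, 15.85 on KO1 and 15.88 on KO2, against 15.83 on WT-LF. Lep, which encodes leptin, was at 12.85 on WT-HF, 11.97 on KO1 and 12.93 on KO2, against 11.85 on WT-LF. It was the 1 adipocyte marker at least 1.5-fold from WT-LF on WT-HF and on KO2. The median difference of the 8 from WT-LF was −0.06 on WT-HF (5 lower, 3 higher) and −0.004 on KO2 (4 lower, 4 higher). The part of these cell types in the ribosomal protein values was not tested.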

How the data were processed

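Members and gene lists were chosen with earlier results of these data known. The authors deposited 1 linear intensity per probe set and array, and per the submitters' processing notes RMA and R 2.15.0 were used. A genome build is not given in the sources used here. Tests were planned for log2 values, so log2 of the deposited intensities was taken, with no other scaling. Of 35556 probe sets, 21218 with 1 symbol in the platform annotation were used (1881 name several genes, 12457 none). Per gene the one with the highest mean was kept, and genes with a mean of at least 5.45, the 40th percentile, were tested. All 67 symbols matched the RefSeq gene table of GRCm38.p6 by Entrez ID.

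KO and wild type were compared with limma 3.58.1 in R 4.3.3 (3 group means, eBayes without trend, two-sided, Benjamini-Hochberg over all 11292 genes, threshold 0.05). With 1 residual degree of freedom, each single wild type array is taken to vary as the KO pair does. Other comparisons are counts at 1.5-fold and medians; the small number of arrays limits their precision. Named genes followed a rule of extremes in level and in each difference, with fixed members and probe sets that disagree; exceptions are stated. Steps were tested on simulated data. Alternatives were the filter, the probe set rule, centring, quantile normalization, the variance model, an added 16 before log2, a 1.2-fold threshold and each KO array left out. Figures were drawn with matplotlib 3.10.9.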

Additional observations from a re-analysis of the deposited data

How the results depend on the processing

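The count of ribosomal protein genes at least 1.5-fold lower on WT-HF than on WT-LF was 6, and became 12 with arrays centred, 11 after quantile normalization and 37 at 1.2-fold. For KO2 against KO1 the count of 15 became 27 with arrays centred and 43 at 1.2-fold. The same counts over all genes were not made under these settings, so no background share stands beside them. Members 1.5-fold or more from WT-LF on both KO arrays numbered 0, and 0 to 4 with 1 KO array left out; the 4 come from KO2 alone. The KO median of −0.06 was −0.26 without KO1 and 0.10 without KO2. Limma called 0 of the members under each of 6 alternatives. Over all genes its calls ran from 0 with no filter on low values to 6 with arrays centred. With no filter, the 0 among members therefore says nothing about them. The diet median of −0.32 ran from −0.39 with arrays centred to −0.22 over single probe sets, a reading added after seeing the data. The median between the KO arrays, −0.32, ran from −0.51 with arrays centred to −0.30 over single probe sets. No paired analysis was possible because wild type has 1 array per diet and only the KO group has numbered replicates. The other alternatives moved group results by less than the spread between the KO arrays or, for counts, by less than 1.5 times.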

Other observations

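Probe sets that name several genes were left out of the values above. Of the 60 that name at least 1 ribosomal protein gene of the 67, 58 were lower on WT-HF than on WT-LF (median −0.28) and 59 were lower on KO2 than on KO1 (median −0.35). The share among all probe sets that name several genes was not counted. No gene is named from the 60.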
